A study of Mus musculus with 6 samples.

Results

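The cells described here are droplet-sequenced mouse lung epithelial cells of the third library in a count table of 3 that carried much Retnla mRNA and, with it, transcripts of at least 1 of the genes Dlk1, Bpifb1, Bpifb5, Hdc and Retnlg. A cell was a member if it held at least 1000 unique molecular identifiers (UMIs, counts of single captured mRNA molecules), if Retnla made up at least 0.5% of them, and if the 5 genes together gave at least 2 UMIs. The rule found 2111 members among the 14594 cells of the third library with at least 1000 UMIs, and among 36584 barcodes in all. The library was numbered by the order in which its barcode token first appeared, which says nothing of its group. Since measured values chose the members, the levels of Retnla and of the 5 genes in them are a description.

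Per the labels, alveolar type II (ATII) cells were sorted from lungs of young and old mice of genotype IL4Ra WT and either sequenced fresh on day 0 or grown as alveolarspheres, hollow balls of epithelium, without serum or feeder cells until day 13. There were 3 expression libraries with 1 replicate each, namely a day 13 culture from mice of both ages, a day 13 culture from young mice, and fresh day 0 cells from mice of both ages. A cytokine at 10 ng/ml, or PBS as its control, was added to the cultures on day 3, and each library is labelled a mixture of treatments. The cytokine is IL-4 by the title of the series, but an interleukin of another number by its design text. No barcode token matched a label and the tag counts that would tell mice and treatments apart were not used here, so the day, age, treatment and mouse of every cell described below are unknown. Young against old and cytokine against PBS cannot be told apart in what follows.

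Retnla encodes resistin-like alpha, a small secreted protein that interleukins 4 and 13 induce in mouse epithelium and macrophages through the transcription factor STAT6. Retnlg encodes resistin-like gamma, a relative of it best known from the bone marrow and from neutrophils. Bpifb1 and Bpifb5 encode secreted proteins of the BPI fold family, of which Bpifb1 is known from mucous and secretory cells of the airway. Hdc encodes histidine decarboxylase, the enzyme that makes histamine and that is best known from mast cells and basophils. Dlk1 encodes a membrane protein related to Notch ligands, expressed from the paternal allele in fetal tissue, in an imprinted domain with the noncoding RNAs Meg3 and Rian. ATII cells make surfactant and give rise to alveolar type I (ATI) cells, the thin cells across which gas is exchanged.

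In the GENCODE annotation of GRCm38, Hdc lies on the minus strand of chromosome 2 at 126593667 to 126619299. Bpifb1 at 154190818 to 154220369 and Bpifb5 at 154223742 to 154240902 are neighbours on the plus strand of the same chromosome. Retnla at 48842551 to 48844461 and Retnlg at 48872621 to 48874496 are neighbours on chromosome 16, and Dlk1 lies on chromosome 12 at 109452823 to 109463336. The 250 bases before each RefSeq transcription start (GRCm38.p6) are shown 5′ to 3′ on the gene's own strand, because these are the genes the cells were chosen by and they come from 3 chromosomes. Capitals mark a match to a STAT motif, TTCNNNGAA or TTCNNNNGAA, searched on both strands and chosen after the expression values had been seen. Bpifb1 has 2 annotated starts. The windows are chr12:109452573-109452822 for Dlk1, chr2:154190568-154190817 and chr2:154200130-154200379 for Bpifb1, chr2:154223492-154223741 for Bpifb5, chr2:126618679-126618928 for Hdc, chr16:48872358-48872607 for Retnlg and chr16:48842359-48842608 for Retnla.
Dlk1: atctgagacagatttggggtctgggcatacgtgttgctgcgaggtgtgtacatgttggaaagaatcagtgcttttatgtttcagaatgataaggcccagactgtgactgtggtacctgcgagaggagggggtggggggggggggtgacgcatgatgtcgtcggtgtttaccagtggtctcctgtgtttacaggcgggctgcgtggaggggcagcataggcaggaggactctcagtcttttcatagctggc
Bpifb1, start 1: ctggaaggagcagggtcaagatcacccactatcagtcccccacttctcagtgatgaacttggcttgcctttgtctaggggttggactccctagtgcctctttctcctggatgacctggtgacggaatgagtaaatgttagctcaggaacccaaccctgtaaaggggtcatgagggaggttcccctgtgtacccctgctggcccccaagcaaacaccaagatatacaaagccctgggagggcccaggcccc
Bpifb1, start 2: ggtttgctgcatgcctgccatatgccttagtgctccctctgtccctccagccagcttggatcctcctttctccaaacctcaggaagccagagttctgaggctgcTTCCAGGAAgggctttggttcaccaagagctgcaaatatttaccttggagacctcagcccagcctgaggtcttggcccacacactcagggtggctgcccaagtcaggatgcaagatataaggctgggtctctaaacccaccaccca
Bpifb5: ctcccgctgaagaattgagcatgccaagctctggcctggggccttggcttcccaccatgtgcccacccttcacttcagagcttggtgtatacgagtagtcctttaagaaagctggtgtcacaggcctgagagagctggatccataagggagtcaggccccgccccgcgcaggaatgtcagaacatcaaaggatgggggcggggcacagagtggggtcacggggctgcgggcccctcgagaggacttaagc
Hdc: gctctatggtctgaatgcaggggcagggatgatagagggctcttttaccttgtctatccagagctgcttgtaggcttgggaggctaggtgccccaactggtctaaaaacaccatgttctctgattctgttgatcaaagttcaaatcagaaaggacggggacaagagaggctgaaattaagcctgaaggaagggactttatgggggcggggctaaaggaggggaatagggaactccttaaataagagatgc
Retnlg: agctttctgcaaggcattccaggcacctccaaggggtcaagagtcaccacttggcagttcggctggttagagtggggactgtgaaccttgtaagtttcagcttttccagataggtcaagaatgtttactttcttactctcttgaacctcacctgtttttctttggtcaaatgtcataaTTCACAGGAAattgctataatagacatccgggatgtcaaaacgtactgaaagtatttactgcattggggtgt
Retnla: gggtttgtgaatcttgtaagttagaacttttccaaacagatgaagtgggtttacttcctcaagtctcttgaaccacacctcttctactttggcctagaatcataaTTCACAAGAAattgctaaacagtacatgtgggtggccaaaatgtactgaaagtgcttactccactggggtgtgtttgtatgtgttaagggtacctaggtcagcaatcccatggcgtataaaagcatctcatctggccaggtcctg
The form with 4 spacer bases was found in Retnlg, 72 bases before the start, and in Retnla, 145 bases before it. The form with 3 spacer bases was found at the second Bpifb1 start, 146 bases before it. Among 32851 windows of this length, 5.85% held the first form and 7.02% the second. No match was found in the other windows shown, and a match is a stretch of letters, not a measured binding site.

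The members held ATII transcripts, as the labelled cell type would have it. Sftpc, the surfactant protein that defines ATII cells, stood at 110254 counts per 1000000 UMIs (CPM) in members and at 123389 CPM in cells of the same Retnla range without the 5 genes, and every cell of either kind held it. Of 20 ATII markers, 19 reached 20 CPM in members. The label's 3 leading genes were seldom found together: 30 of 2111 members (1.42%) held Dlk1, Bpifb1 and Hdc at once. They are therefore called members below, after their rule, and not by a cell type that all 3 genes would mark.

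Within the 2111 members the 5 genes gave 7774 UMIs. Hdc gave 3378 of these (43.5%), Bpifb5 1750 (22.5%), Dlk1 1264 (16.3%), Bpifb1 808 (10.4%) and Retnlg 574 (7.38%). Hdc was found in 1536 members (72.8%), Bpifb5 in 928 (44.0%), Bpifb1 in 548 (26.0%), Dlk1 in 340 (16.1%) and Retnlg in 297 (14.1%). Hdc thus led both in UMIs and in cells. A single gene made up the count in 872 members (41.3%), 2 genes did in 974 (46.1%), 3 in 233 (11.0%), and 4 or 5 in 32. Hdc alone put 543 cells in the group, against 160 for Bpifb5 alone, 95 for Dlk1 alone, 38 for Bpifb1 alone and 36 for Retnlg alone.

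Most members lay close to the threshold. There were 887 members with exactly 2 UMIs of the 5 genes (42.0%), 487 with 3, 267 with 4 and 470 with 5 or more, up to 27 in 1 cell. Just outside it, 1770 cells of the same Retnla range held exactly 1 UMI, and 4157 held 0. Dlk1 was the most uneven of the 5 genes after Retnlg: up to 26 of its UMIs fell in 1 cell, and the 10 richest members held 13.7% of its UMIs, against 19.9% for Retnlg and 2.84% for Hdc.

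The rule counts UMIs and so favours deep cells. The members' median was 4477 UMIs (range 1007 to 14865), against 3784 in cells with 1 UMI of the 5 genes and 3119 in cells with 0. They were 14.5% of cells in the third library (exact binomial interval 13.9% to 15.05%, counting error only) and 1425 of 5593 cells (25.5%) in the second, which had a median of 8349 UMIs per cell against 3339 in the third. After every cell had been thinned to 1000 UMIs, 420 of the 8038 cells of the Retnla range in the third library still held 2 or more UMIs of the 5 genes (5.23%), and 122 of 3238 in the second (3.77%). The first library had 7 cells in the Retnla range and no member.

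The share of cells with these genes was higher at higher Retnla. In the third library, thinned to 1000 UMIs, 2 or more UMIs of the 5 genes were found in 0.249% of 6032 cells with Retnla under 0.1% of UMIs, 1.53% of 524 cells at 0.1 to 0.5%, 3.16% of 443 at 0.5 to 1%, 3.44% of 1076 at 1 to 2%, 5.16% of 3100 at 2 to 4% and 6.11% of 3419 at 4% or more. Free RNA in the droplets can give UMIs in any cell of a library, and its part in these values was not tested. Across those 6 ranges Bpifb1 stood at 0.193, 10.7, 15.7, 17.8, 28.8 and 38.1 CPM. Hdc stood at 38.0, 31.5, 74.1, 92.7, 143 and 157 CPM, so that it was also present in cells almost without Retnla. Bpifb5 stood at 7.15, 40.9, 38.7, 61.0, 68.2 and 82.6 CPM.

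Dlk1 and Retnlg had another shape in the third library. Dlk1 stood at 2.41, 16.4, 47.9, 49.6, 39.5 and 43.2 CPM over the same ranges, level from 0.5% of Retnla on. Retnlg stood at 1.21, 17.6, 21.7, 18.3, 23.0 and 24.3 CPM, level from 0.1% on. In the second library Hdc stood at 54.7, 38.5, 64.8, 107, 188 and 257 CPM, and Retnlg at 3.36, 12.4, 19.2, 15.5, 15.7 and 12.9 CPM. Dlk1 was not level there, at 1.45, 3.82, 3.24, 5.62, 5.93 and 10.5 CPM, of which the last rests on 17 UMIs.

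**Figure D1:**
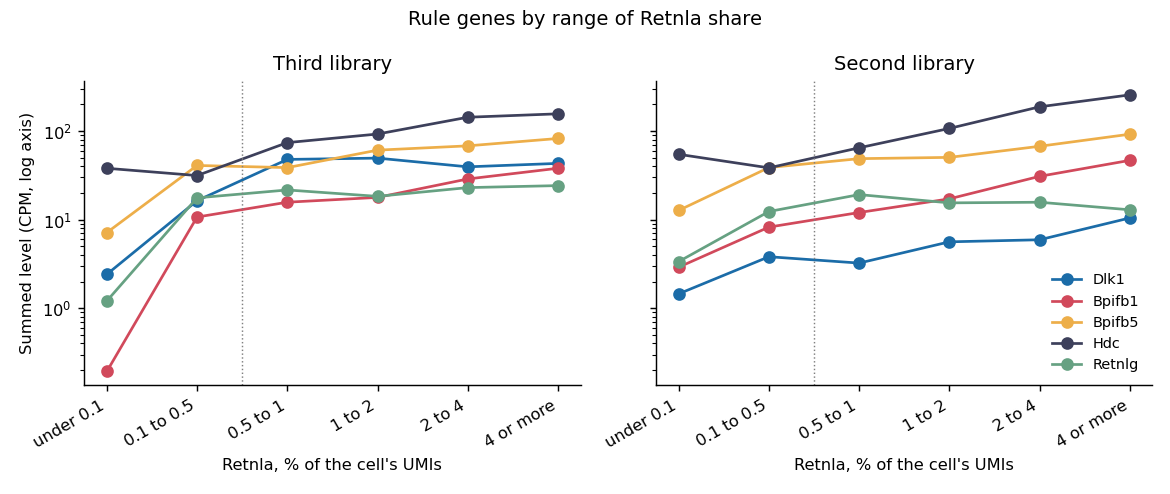
Summed level in CPM (log axis) of each of the 5 genes in cells grouped by the Retnla share of their UMIs, in the third library (left) and the second (right), with a dotted line at 0.5%, the lower limit of the rule. Hdc was 157 CPM in cells of the third library with 4% or more and 38.0 CPM in those under 0.1%, while Dlk1 and Retnlg in the third library were nearly level over the ranges above 0.5%.

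To ask whether the 5 genes go together without using a gene's own part in the rule, cells were chosen by the other 4 genes (2 or more UMIs) and paired on total UMIs with cells of the same Retnla range that held 0 of those 4. Each of the 5 genes was higher in cells chosen by the others. The 5 genes were themselves picked with earlier results of these data known. The pairs were not matched on Retnla share, with which Hdc, Bpifb1 and Bpifb5 rose, and its part in the ratios was not tested. Bpifb1 reached 55.2 CPM in cells chosen by the other 4 genes and 19.4 CPM in their matched cells, a ratio of 2.84 (exact interval 2.37 to 3.42), and was found in 17.8% and 6.54% of those cells. Dlk1 had 58.2 and 31.5 CPM, a ratio of 1.85 (1.58 to 2.16), and Bpifb5 104 and 59.6 CPM, a ratio of 1.75 (1.55 to 1.96). Hdc had 191 and 132 CPM, a ratio of 1.45 (1.31 to 1.61), and Retnlg 30.7 and 21.7 CPM, a ratio of 1.41 (1.17 to 1.72). Bpifb1 thus had the highest ratio of the 5, while the cells without the others still held every one of the genes.

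The second library, which the rule did not use, gave ratios of 3.05 (1.72 to 5.71) for Dlk1, 2.48 (1.99 to 3.098) for Bpifb1, 1.90 (1.69 to 2.15) for Bpifb5, 1.40 (1.27 to 1.55) for Hdc and 1.37 (1.11 to 1.69) for Retnlg. Dlk1 was rare there: in 38 members it had 157 UMIs, and 10 cells held 70.7% of them. The Retnlg ratio there was not matched by the cells that held it, 9.03% of cells chosen by the other 4 genes and 9.32% of their matched cells. Exact intervals cover counting error only, since cells of 1 library are not replicates and no test was run.

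**Figure D2:**
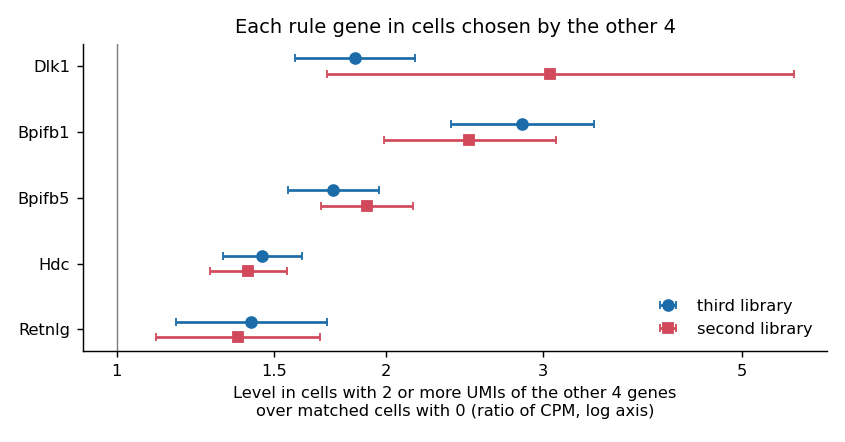
Ratio of the level of each gene (log axis) in cells with 2 or more UMIs of the other 4 genes over depth-matched cells with 0, in the third library (circles) and the second (squares), with exact 95% intervals that cover counting error only. Bpifb1 had the highest ratio in the third library, 2.84, and Retnlg the lowest, 1.41.

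Genes outside the rule were compared between members and cells of the same Retnla range with 0 UMIs of the 5 genes, paired on total UMIs within 10%. Of 2111 members, 1970 (93.3%) found a partner, and the other 141 did not (median 6352 UMIs). Paired members had a median of 4337.5 UMIs and 1366.5 genes, and matched cells 4061.5 UMIs and 1351 genes. Retnla itself, at 40292 CPM in members and 37463 CPM in matched cells, was nearly level. At least 2 UMIs of 7 proliferation genes were found in 564 members (28.6%) and in 450 matched cells (22.8%). Fold changes are members over matched cells on the log2(CPM + 1) scale, and a gene is called higher or lower at 1.5-fold with at least 20 CPM in either group. Their intervals are those of the count ratio. Of 4569 genes so measured, 50 were called higher in members (1.09%) and 76 lower (1.66%), 126 in all (2.76%). With TMM scaling, which moved all genes together by -0.045 on the log2 scale, 60 were called higher and 61 lower. The median log2 fold over all genes was -0.01.

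Most measured genes of ATI cells were lower in members. Of 20 ATI markers 11 were measured, and 8 of these were called lower and 0 higher, with a median log2 fold of -0.76. Of all genes 1.66% were called lower, and their median was -0.01. Hopx, a transcriptional cofactor of ATI cells, stood at 15.1 CPM in members and 51.8 CPM in matched cells, a log2 fold of -1.71 (-2.07 to -1.50), and was found in 5.74% and 14.5% of cells. Ager, the receptor for advanced glycation end products and the most used ATI marker, stood at 136 CPM in members and 319 CPM in matched cells (-1.22, -1.33 to -1.13). Akap5, which anchors protein kinase A, stood at 9.05 CPM in members and 29.3 CPM in matched cells (-1.59), and Clic5, an intracellular chloride channel protein, at 16.2 CPM in members and 46.9 CPM in matched cells (-1.48). Cldn18, a tight junction protein, and Timp3, an inhibitor of matrix proteases, had log2 folds of -0.99 and -0.76. Aqp5, a water channel, was not called, at 747 CPM in members and 916 CPM in matched cells, and Vegfa was not called at 24.0 and 29.0 CPM.

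ATII identity differed less. Of 20 ATII markers 19 were measured, 4 were called lower and 0 higher, and their median log2 fold was -0.15. S100g, a calcium-binding protein, stood at 48.0 CPM in members and 145 CPM in matched cells (-1.58), Lyz2, lysozyme, at 34.2 CPM in members and 64.8 CPM in matched cells (-0.90), Sfta2 at 221 CPM in members and 370 CPM in matched cells (-0.74) and Muc1 at 164 CPM in members and 263 CPM in matched cells (-0.68). The surfactant protein genes Sftpa1, Sftpb and Sftpd had log2 folds of 0.38, 0.37 and 0.23 and were not called. Abca3 and Lamp3, proteins of the lamellar bodies in which surfactant is stored, stood at 57.1 and 308 CPM in members and at 68.2 and 330 CPM in matched cells. Of 15 measured genes of the transitional state between ATII and ATI, only Lgals3, galectin 3, was called, at 56.2 CPM in members and 96.9 CPM in matched cells (-0.78). Krt8, the keratin that names that state, stood at 524 CPM in members and 487 CPM in matched cells.

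Some chaperones of the endoplasmic reticulum were higher in members. Of 30 genes of the unfolded protein response and the secretory pathway 25 were measured, and 5 were called higher, 0 lower and 20 not at all. Over all genes 1.09% were called higher and 1.66% lower. The median log2 fold of the list was 0.33, against -0.01 for all genes, and 24 of the 25 lay above 0. With Hdc out of the rule none of the 5 reached 1.5-fold, with log2 folds of 0.36 for Sdf2l1, 0.43 for Manf, 0.34 for Calr, 0.50 for Creld2 and 0.18 for Hspa5. Sdf2l1, a cofactor of the chaperone BiP, stood at 83.4 CPM in members and 41.1 CPM in matched cells, a log2 fold of 1.004 (0.83 to 1.21), and was found in 28.1% and 14.3% of cells. Manf, a protein secreted under stress of the endoplasmic reticulum, stood at 350 CPM in members and 208 CPM in matched cells (0.75), and Calr, the calcium-binding lectin chaperone calreticulin, at 420 CPM in members and 257 CPM in matched cells (0.71). Creld2 stood at 46.4 CPM in members and 28.2 CPM in matched cells (0.70), and Hspa5, which encodes BiP, at 639 CPM in members and 425 CPM in matched cells (0.59). Xbp1, the transcription factor that drives many secretory genes, had a log2 fold of 0.56 and was not called. Ddit3, which encodes CHOP, a factor of prolonged stress, was not called at 24.5 CPM in members and 28.6 CPM in matched cells. Fkbp11, a folding enzyme of secretory cells outside the list, stood at 283 CPM in members and 153 CPM in matched cells (0.88).

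Of the called genes of that list whose 250-base windows were searched, Calr, Creld2 and Hspa5 held the element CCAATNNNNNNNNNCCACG, through which ATF6 and its partners act on chaperone genes, and Sdf2l1 did not. It was searched on both strands, was chosen after the values were seen, and was found in 0.113% of all windows. The windows of Manf, which was also called, and of the genes of the list not called were not looked at singly. The share of chaperone genes at large that hold the element is therefore not known here, and its part in the calls was not tested. The matches are in capitals, 162 bases before the Calr start, 126 before the Creld2 start and 65 before the Hspa5 start, in the windows chr8:84846932-84847181, chr15:88819396-88819645 and chr2:34771840-34772089.
Calr: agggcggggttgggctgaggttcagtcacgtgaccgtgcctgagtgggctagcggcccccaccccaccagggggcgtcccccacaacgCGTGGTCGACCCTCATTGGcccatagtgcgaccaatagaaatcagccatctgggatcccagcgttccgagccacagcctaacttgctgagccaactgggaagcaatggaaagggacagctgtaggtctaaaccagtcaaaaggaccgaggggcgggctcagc
Creld2: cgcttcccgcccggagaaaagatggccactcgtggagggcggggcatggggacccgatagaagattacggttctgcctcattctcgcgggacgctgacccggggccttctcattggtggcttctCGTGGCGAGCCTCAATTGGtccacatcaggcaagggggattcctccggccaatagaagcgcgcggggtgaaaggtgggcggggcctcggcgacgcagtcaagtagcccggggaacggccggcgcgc
Hspa5: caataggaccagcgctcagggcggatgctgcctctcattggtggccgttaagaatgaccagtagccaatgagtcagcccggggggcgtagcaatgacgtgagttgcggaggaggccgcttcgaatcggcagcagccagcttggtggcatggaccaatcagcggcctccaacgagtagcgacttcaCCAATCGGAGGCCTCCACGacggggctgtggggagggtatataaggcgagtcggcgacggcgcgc
The matches of Calr and Creld2 read as the reverse complement of the element as written.

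Some secreted and immune-type genes were among the other higher calls. Chil4, a chitinase-like protein that interleukins 4 and 13 induce in mouse lung, stood at 4533 CPM in members and 2511 CPM in matched cells (0.85), and was found in 68.1% and 51.9% of cells. How the authors' counting split reads between Chil4 and its near-identical neighbour Chil3 is not given in the sources used here, so its level is uncertain. The same holds for Retnla and Retnlg. Of 10 measured genes of the response to these interleukins, 2 were called higher, Chil4 and the amino acid oxidase gene Il4i1, and 1 lower, Duoxa1, with a median of 0.12. Over all genes 1.09% were called higher and 1.66% lower, with a median of -0.01. Il4ra, the receptor chain that the genotype label names, stood at 23.8 CPM in members and 17.2 CPM in matched cells and was not called. Cxcl3, a chemokine for neutrophils, stood at 521 CPM in members and 279 CPM in matched cells (0.90), and Lrg1, a secreted glycoprotein, at 759 CPM in members and 467 CPM in matched cells (0.70). They were the 2 higher calls among 18 measured genes of secreted host defence, whose median was 0.27. Lcn2, which binds bacterial iron carriers, stood at 10849 CPM in members and 7690 CPM in matched cells (0.50) and was not called.

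Pf4, platelet factor 4, stood at 1611 CPM in members and 876 CPM in matched cells (0.88), and Cd177, a surface protein best known from neutrophils, at 1129 CPM in members and 647 CPM in matched cells (0.80). Ncf4, a subunit of the phagocyte NADPH oxidase, stood at 31.5 CPM in members and 17.3 CPM in matched cells (0.83), and Rac2, a GTPase of blood cells, at 27.8 CPM in members and 15.9 CPM in matched cells (0.77). Most defining markers of blood cells were at or near 0 in the same cells, with Cd79b and Lyz2 as exceptions. Ptprc, the pan-leukocyte marker, gave 0 UMIs in both groups. The neutrophil list without Retnlg summed to 1.12 CPM in members and 1.32 CPM in matched cells, with 9 of its genes at 0 in members. The mast cell and basophil list without Hdc summed to 0.447 CPM in members and 0.478 CPM in matched cells, with 11 genes at 0 in members, among them Fcer1a, Cpa3 and Mcpt8. The macrophage and monocyte list summed to 57.0 CPM in members and 84.1 CPM in matched cells and held 1 measured gene, Lyz2, which ATII cells also express. The T, NK and B cell list summed to 216 CPM in members and 180 CPM in matched cells, with 10 genes at 0 in members. Nearly all of this was Cd79b, a chain of the B cell receptor complex, at 215 CPM in members and 179 CPM in matched cells (0.27, not called), which was found in 53.9% and 46.6% of cells.

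Other genes among the 15 with the highest fold changes were Apln, the peptide hormone apelin, with a log2 fold of 0.92, Srm, which makes spermidine, with 0.76, Tnfrsf9, a receptor of the tumour necrosis factor family, with 0.75, and Bok, of the Bcl2 family, with 0.73. Among the 15 with the lowest were Ndnf, a secreted protein first described in neurons, at 10.2 CPM in members and 39.1 CPM in matched cells (-1.84), Nebl, an actin-binding protein (-1.71), the lung carbonyl reductase Cbr2 (-1.36), the carboxylesterase Ces1d (-1.24), Clic3 (-1.14), Pdlim2 (-1.10), Igfbp7 (-1.10), C430049B03Rik (-1.07), Nrep (-1.05) and Lpin2, an enzyme of lipid synthesis (-1.02).

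Of 3 measured airway secretory genes 2 were called higher and 1 lower, against 1.09% and 1.66% of all genes. Cbr2, the lower one, stood at 36.2 CPM in members and 94.4 CPM in matched cells (-1.36). The 2 higher ones had the largest fold changes outside the rule and rested on few cells. Scgb1a1, the club cell secretoglobin, stood at 96.2 CPM in members and 21.4 CPM in matched cells (2.12), yet it was found in 3.60% of members and 3.35% of matched cells, and 10 members held 81.3% of its UMIs. Scgb3a1 stood at 51.3 CPM in members and 11.7 CPM in matched cells (2.04), was found in 4.42% and 1.62% of cells, and had 60.6% of its UMIs in 10 members. The mucins of goblet cells, Muc5ac and Muc5b, gave 0 UMIs in members, and Spdef, a goblet cell transcription factor, stood at 9.16 CPM in members and 5.38 CPM in matched cells. Of 26 goblet and mucous genes 3 were measured, with 0 called higher, 1 lower, Muc1, and a median of -0.32. The list summed to 455 CPM in members and 571 CPM in matched cells. In the second library 5 were measured, with 2 called higher, Tff2 and Itln1, 0 lower and a median of 0.46.

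Noncoding RNAs of the Dlk1 domain were higher or level: Rian stood at 60.0 CPM in members and 37.2 CPM in matched cells (0.68), and Meg3 at 347 CPM in members and 271 CPM in matched cells (0.36, not called). Rian was under 1.5-fold with pairing within 1% (0.57), without proliferating cells (0.55) and with Hdc out of the rule (0.33). In the second library it was not called (0.32). Dlk1 of the same domain is itself a rule gene, so matched cells hold no UMI of it. The part of that choice in the levels of Rian and Meg3 cannot be told from these values. None of 3 measured genes of the Notch pathway was called. The nuclear RNA Malat1 stood at 3163 CPM in members and 4814 CPM in matched cells (-0.61). Among 12 measured genes of the integrated stress response, 3 genes of amino acid and folate metabolism were called higher, Asns (0.69), Mthfd2 (0.63) and Shmt2 (0.61). Of all genes 1.09% were called higher. With pairing within 1%, Asns was at 0.70, and Mthfd2 and Shmt2, at 0.47 and 0.49, were under 1.5-fold. With Hdc out of the rule all 3 were under it, at 0.35, 0.45 and 0.41. Of 18 measured proliferation genes 0 were called, with a median of 0.20 and 17 above 0. No gene was called among 22 of fatty acid and cholesterol synthesis, 21 of oxidative phosphorylation, 17 of glycolysis, 6 of MHC class II or 7 induced by interferon, where medians lay between -0.01 and 0.19.

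**Figure D3:**
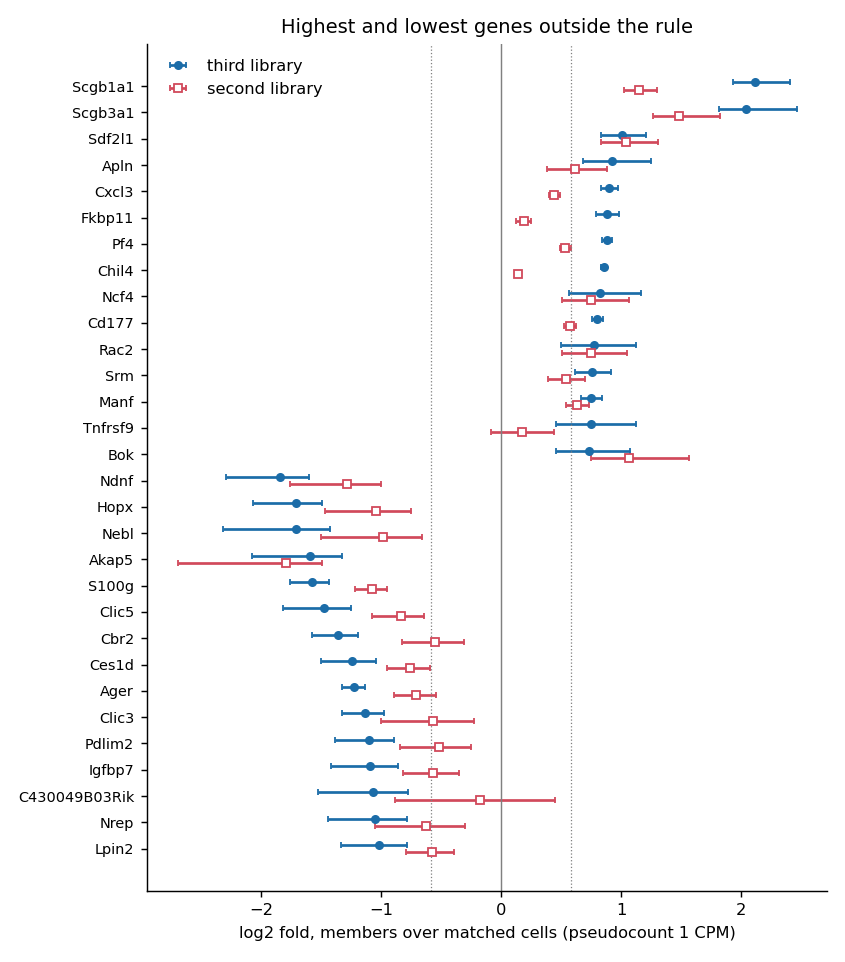
Log2 fold of members over matched cells (pseudocount 1 CPM) for the 15 highest and 15 lowest genes outside the rule, in the third library (filled circles) and the second (open squares). Bars are exact 95% intervals of the count ratio, and dotted lines mark 1.5-fold. Scgb1a1 at 2.12 was the highest and Ndnf at -1.84 the lowest in the third library. All 30 genes had the same sign in the second, as did 73.6% of the 4214 genes measured in both.

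Levels were also compared by the number of UMIs of the 5 genes. Among cells of the Retnla range in the third library with 3000 to 6000 UMIs, there were 2069, 1090, 610, 346 and 494 cells with 0, 1, 2, 3 and 4 or more. These steps were not paired on depth, and their median totals were 3829, 4095, 4154, 4406 and 4449 UMIs. Across these steps Ager stood at 329.7, 195.2, 150.3, 125 and 118 CPM, and Hopx at 52.8, 30.1, 19.1, 11.0 and 12.6 CPM. Sdf2l1 stood at 38.0, 66.02, 73.6, 85.6 and 94.9 CPM, and Pf4 at 876, 1270, 1574, 1641 and 1761 CPM. Chil4 stood at 2580, 3478, 3611, 4867 and 5628 CPM. The airway secretory genes were not graded: Scgb1a1 stood at 30.2, 29.2, 141, 177 and 75.5 CPM, and Scgb3a1 at 12.8, 7.63, 29.8, 72.6 and 40.5 CPM. Of the 30 genes with the highest and lowest fold changes, 28 had a level in cells with 1 UMI, which the rule leaves out, between those in cells with 4 or more and in cells with 0. Scgb1a1 and Scgb3a1 were the other 2. The 30 genes were picked by their difference between members and cells with 0, so the direction between the end steps was fixed by that choice. Only the cells with 1 UMI lay outside it.

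**Figure D4:**
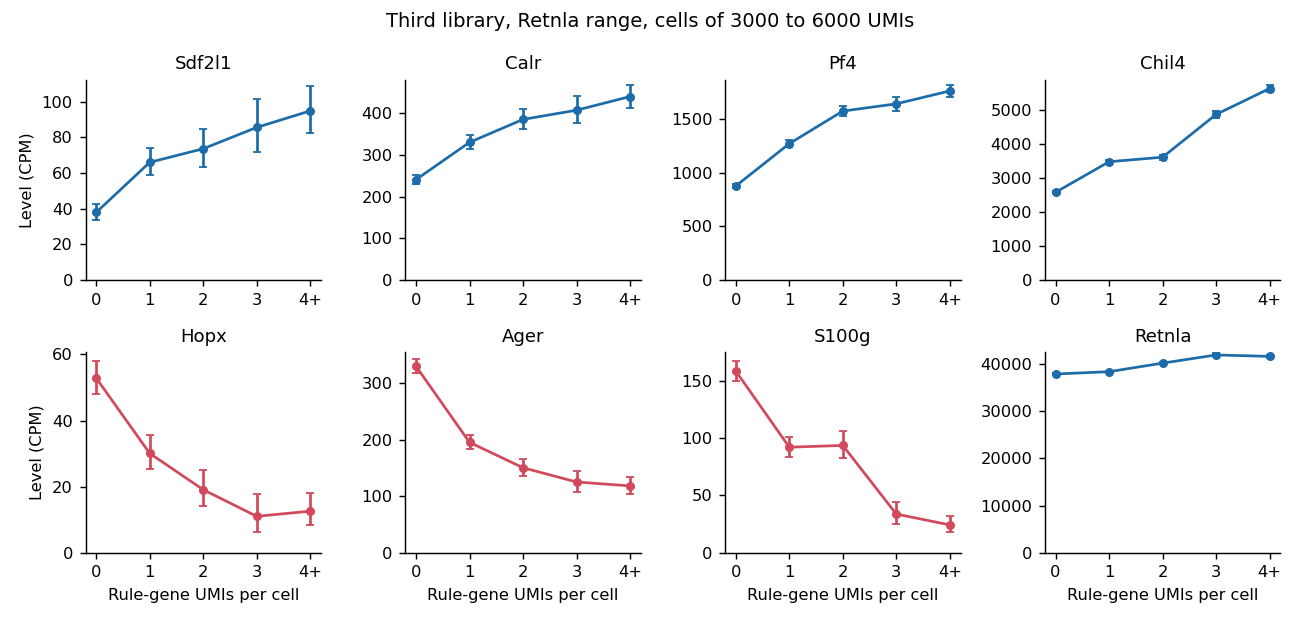
Level in CPM (linear axes from 0) of 8 genes by the number of UMIs of the 5 rule genes per cell, in cells of the Retnla range in the third library with 3000 to 6000 UMIs, with exact Poisson 95% intervals. Hopx, Ager and S100g were lower, and Sdf2l1, Calr, Pf4 and Chil4 higher, in cells with 4 or more than in cells with 0, while Retnla went between 37869 and 41904 CPM. Apart from Retnla, these genes had been called in members of this library, so their direction here was fixed by that choice.

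Cells of the Retnla range, members or not, differed by which gene they held. Cells of the third library that held 1 given gene were paired on depth with cells without it, whatever the other 4. Among the 5 genes, Bpifb1 and Bpifb5 had the highest ratios: Bpifb1 stood at 61.5 CPM in cells with Bpifb5 and 25.6 CPM in cells without it, a ratio of 2.40 (1.99 to 2.91). In the second library the order was another: in cells with Bpifb1 the ratio was 11.8 (5.17 to 33.3) for Dlk1, from 71 UMIs in cells with Bpifb1 and 6 in cells without, and 2.08 (1.77 to 2.45) for Bpifb5. In the third library Chil4 followed these neighbours, with log2 folds of 0.73 for Bpifb1 and 0.70 for Bpifb5, against 0.34 for Hdc and -0.12 for Dlk1. Cxcl3 followed Hdc, at 535 CPM in cells with Hdc and 311 CPM in cells without (0.78), and not Bpifb5, at 395 CPM in cells with it and 414 CPM in cells without (-0.07). Sdf2l1 had log2 folds of 0.72 for Hdc and 0.57 for Bpifb1. For Dlk1 its log2 fold was -0.22 (55.6 CPM in cells with Dlk1, 65.1 CPM in cells without). The interval of that ratio, 0.642 to 1.14, included 1. Scgb1a1, which rested on few cells, stood at 187 CPM in cells with Bpifb1 and 16.4 CPM in cells without. By Dlk1 it stood at 3.55 CPM in cells with it and 49.7 CPM in cells without. Scgb3a1 stood at 84.8 CPM in cells with Bpifb1 and 10.4 CPM in cells without, and by Dlk1 at 23.7 and 27.2 CPM. Retnlg showed little tie to Dlk1, at 34.9 CPM in cells with Dlk1 and 30.8 CPM in cells without, a ratio of 1.13 (0.768 to 1.68). The Retnlg ratio was 0.951 (0.759 to 1.19) for Bpifb5, 1.11 (0.941 to 1.32) for Hdc and 1.43 (1.09 to 1.88) for Bpifb1. Hopx was lower with each of the 5 genes, with log2 folds of -1.47 for Bpifb1, -1.44 for Hdc, -0.97 for Dlk1, -0.72 for Retnlg and -0.53 for Bpifb5. Without Hdc in the rule, the log2 fold of Cxcl3 in members of the third library was 0.33, under 1.5-fold, and those of Hopx and Ager were -1.09 and -0.86.

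In the second library the same rule gave 1425 members, of which 946 (66.4%) were paired. Paired members had a median of 9412 UMIs and matched cells 8475. Retnla was at 20335 CPM in members and 14839 CPM in matched cells there, and 24.8% of members and 15.2% of matched cells held 2 or more UMIs of the proliferation genes. Of 4590 genes measured, 74 were called higher (1.61%) and 28 lower (0.61%), 102 in all (2.22%). Of 4214 genes measured in both libraries, 14 were called higher in both (0.332%), 15 lower in both (0.356%) and 0 in opposite directions. Of the 47 genes called higher in the third library that were measured in both, 45 had a log2 fold above 0 in the second, with a median of 0.49 there and 0.68 in the third. Of the 61 called lower, 60 lay below 0 in the second, with a median of -0.46 there and -0.74 in the third. Most genes agreed in sign whether called or not: of all 4214 measured in both libraries, 3101 (73.6%) did.

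The medians of the chaperone and ATI lists in the second library were 0.33 and -0.41. Sdf2l1, Creld2, Manf and Calr were called higher in both libraries, with log2 folds in the second of 1.04, 1.04, 0.63 and 0.65, and Ager, Hopx, Clic5 and Timp3 lower in both, with -0.71, -1.04, -0.84 and -0.70. With Hdc out of the rule, Sdf2l1, Creld2, Manf and Calr had 0.70, 0.93, 0.35 and 0.33 in the second. With pairing on Retnla share too they had 0.80, 0.80, 0.45 and 0.57. Manf and Calr were thus under 1.5-fold in both of these settings. Hspa5 was not called in the second (0.50), and Atf6, which encodes a sensor of that response, was called lower there, at 15.3 CPM in members and 24.0 CPM in matched cells (-0.61). With Hdc out of the rule, Ager, Hopx, Clic5 and Timp3 had log2 folds of -0.16, -0.21, -0.24 and -0.041 in the second library, so that none reached 1.5-fold, and Ager was at -0.40 with pairing within 1%. Chil4, at 12475 CPM in members and 11312 CPM in matched cells (0.14), Asns (-0.07), Mthfd2 (-0.07) and Shmt2 (0.30) were not called in the second. Nor were Fkbp11 (0.19), Tnfrsf9 (0.17), Cxcl3 (0.44), Pf4 (0.53), Srm (0.54) and Cd177 (0.58), all among the 15 highest in the third. Cxcl3 was at -0.0079 with Hdc out of the rule, and Bok did not reach 20 CPM. Apln (0.61), Ncf4 (0.75), Rac2 (0.75), Scgb1a1 (1.15) and Scgb3a1 (1.48) were called higher in the second library too. Proliferation genes were called there and not in the third: 13 of 16 measured were called higher, with a median of 0.74, and Cdk1 stood at 71.0 CPM in members and 35.9 CPM in matched cells (0.96). Of all genes 1.61% were called higher in the second library. With total UMIs paired within 1%, only Rrm2 of those 13 stayed past 1.5-fold (0.67), and Cdk1 was at 0.54. Without proliferating cells only Cdk1 did (0.74). Cells with 2 or more UMIs over Mki67, Top2a, Cdk1, Ccnb1, Cenpf, Nusap1 and Birc5 were left out there. All of these genes but Mki67 are among the 13. That setting thus cut on their own counts and cannot tell what part cycling cells had in their folds. The difference between the libraries was not tested, and the part of depth, of cycling cells and of Retnla in the second was not tested beyond the settings given at the end.

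**Figure D5:**
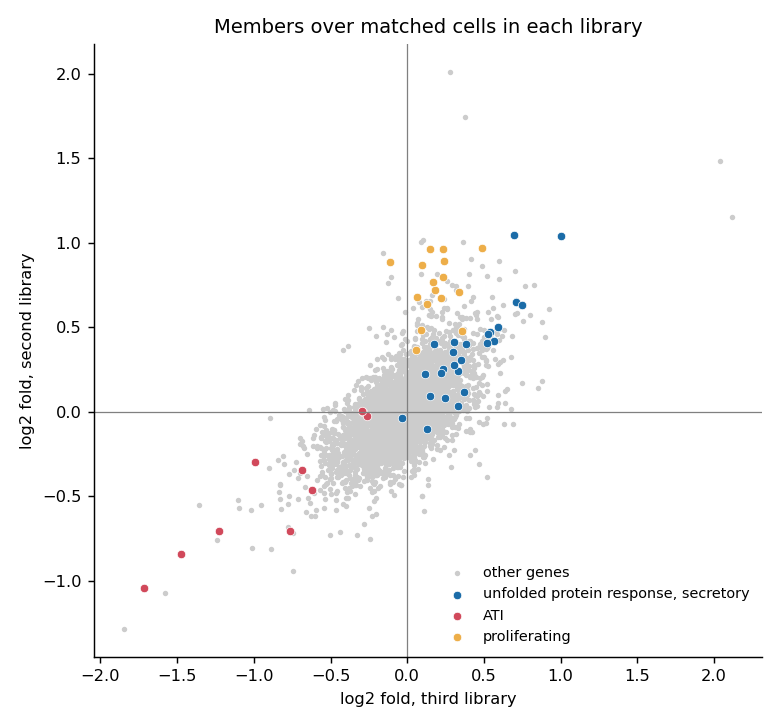
Log2 fold of members over matched cells in the third library (x axis) and the second (y axis) for 4214 genes measured in both, with genes of 3 lists in colour. ATI genes lie to the lower left and chaperone and secretory genes to the upper right, with medians of -0.76 and 0.33 in the third library, and proliferation genes stand higher in the second (0.74) than in the third (0.20).

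The third library held 53372634 UMIs in 14623 barcodes, the second 48677816 in 5594 and the first 63658436 in 16367. Barcode sequences were shared by 22 cells of the third library and the second, 67 of the third and the first, and 20 of the second and the first, and 18 members had a barcode that also occurs in another library. Mitochondrial genes gave a median of 0.590% of UMIs in members. Doublets were not removed here, and a cell that holds genes of several kinds may be several cells.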

How the data were processed

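Single cells of lung ATII cells and of alveolarspheres grown from them were sequenced with 10x Genomics 3 prime chemistry and multiplexing tags, per the labels' protocols. The authors deposited 1 matrix of UMI counts, whole numbers and not normalised. Cell Ranger 6.0.1, bcl2fastq and the builds mm10 and GRCm38 are listed in the submitters' processing notes. Cell calling, doublet removal and the handling of reads shared by paralogues are not given in the sources used here. Barcodes carried 3 library tokens that match no label, so no cell was assigned to a mouse, age, day or treatment.

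The GENCODE annotation named 52489 of 52636 gene IDs, and the other 147 hold 0.0098% of UMIs. Counts were summed over cells, scaled to counts per 1000000 UMIs (CPM) and compared as log2(CPM + 1). Members were paired with cells without the 5 genes on total UMIs, the deepest first, at most 10% apart. No test was run, because each group is 1 library and cells are not replicates. Intervals are 95% exact Poisson, exact conditional or Clopper-Pearson intervals and cover counting error only. The genes named are the 5 rule genes and Retnla, genes of 43 lists, and the 15 highest and 15 lowest by log2 fold in the third library with at least 20 CPM in either group. Fkbp11 is among these 15. The members and lists were chosen with earlier results of these data known. Thinning drew 1000 UMIs per cell with seed 1. Intervals came from scipy 1.17.1 and figures from matplotlib 3.10.9, with pandas 2.3.3 and numpy 2.4.6 under Python 3.11.15, and edgeR 4.0.16 served for TMM factors only. The comparison was tested on simulated data. The tag libraries were not used here.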

Additional observations from a re-analysis of the deposited data

Results flagged for a closer look

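Hdc and Bpifb5 were also present in the first library, which the comparisons do not use and which had 7 cells in the Retnla range. Hdc stood there at 90.6 CPM, with 5767 UMIs in 4011 of 16367 cells (24.5%), and Bpifb5 at 13.5 CPM, with 862 UMIs in 835 cells (5.10%). A count of 3 would be 0.0471 CPM in that library. Bpifb1 gave 11 UMIs there, Retnlg 58, and Dlk1 44, of which 20 were in 1 cell.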

How the results depend on the processing

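The comparison was repeated under 20 other settings in each library, of which pairing within 1% of total UMIs was added after seeing the data. Counts of called genes, 50 higher and 76 lower in the third library and 74 and 28 in the second, moved by more than 1.5 times under these. In the third library there were 29 higher with a pseudocount of 5 CPM, 358 higher and 677 lower with no filter on low values, 3 and 16 at 2-fold, 151 lower with 3 or more UMIs required, 190 higher and 117 lower without pairing, 168 lower without proliferating cells, 559 higher and 843 lower with cells thinned to 1000 UMIs, 27 higher with Bpifb1 out of the rule, 25 higher with Hdc out of it, and 121 lower with pairing within 1%. In the second there were 457 higher and 451 lower with no filter, 12 and 4 at 2-fold, 113 and 75 with 3 or more UMIs, 14 lower with pairing on Retnla too, 40 and 43 without proliferating cells, 1243 and 1364 after thinning, 28 and 4 with Hdc out of the rule, and 38 higher with pairing within 1%. The share of members was 8.39% with 3 or more UMIs and 2.87% after thinning in the third library, against 14.5%, and 16.1%, 2.16% and, at 1% of Retnla or more, 20.4% in the second, against 25.5%. Thinning left 419 members in the third library and 121 in the second, so that few UMIs make up 20 CPM; the cause of the other moves was not tested. Signs were followed only for called genes of a list or among the 15 highest and 15 lowest. That is not all of the 126 genes called in the third library or the 102 in the second. Among those followed, log2 folds that changed sign were, in the third library, Rac2 (-0.40), Shmt2 (-0.43) and Mt2 (0.82) after thinning, and Duoxa1 (0.19) and Mt2 (0.025) without Hdc in the rule. In the second they were Top2a (-0.014), Cenpf (-0.090), Nusap1 (-0.18), Hmgb2 (-0.20) and Tyms (-0.012) without proliferating cells, and Sprr1a (0.27), Hmox1 (0.15) and Mt2 (0.45) without Hdc in the rule. After thinning they were Hopx (0.56), S100g (0.26), Pim1 (-1.19), Lgals3 (0.41), Cdk1 (-4.69), Ccnb1 (-4.13), Ccna2 (-0.92), Cenpf (-4.13), Nusap1 (-4.13), Ube2c (-1.65), Tyms (-0.96), Rrm2 (-0.96), Hmox1 (0.36) and Mt2 (0.82). Top2a, Cenpf and Nusap1 are among the genes by which proliferating cells were left out, so their folds in that setting were bound by that choice. Of the values for single genes, 1287 stayed within the counting interval of the value given in the third library, 288 left it and 5 called ones changed sign, against 1285, 273 and 22 in the second. No paired analysis was possible because each group has 1 library, and leaving out a replicate was not possible for the same reason. Depth limits genes near 20 CPM, and intervals cover counting error only.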

Other observations

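In the first library, where Retnla was not required, Bpifb5 did not follow the other 4 genes as it did in the third. It gave 69 UMIs in 1147 cells with 2 or more UMIs of the others and 66 UMIs in as many depth-matched cells with 0, a ratio of 1.04 (exact interval 0.734 to 1.49), against 1.75 (1.55 to 1.96) in the Retnla range of the third library. Nearly all of the cells chosen there were chosen by Hdc, since the other 4 genes without Hdc chose 36 cells. The difference between the libraries was not tested.

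Genes at low levels differed between members and matched cells of the third library without reaching 20 CPM. Car4, a carbonic anhydrase, stood at 15.97 CPM in members and 4.18 CPM in matched cells and was found in 5.53% and 1.62% of cells, and in the second library it stood at 26.2 CPM in members and 10.0 CPM in matched cells. Tff2, a secreted trefoil peptide, stood at 13.4 CPM in members and 6.33 CPM in matched cells of the third library, and at 23.2 CPM in members and 5.49 CPM in matched cells of the second. Itln1, the lectin intelectin, stood at 15.6 CPM in members and 8.49 CPM in matched cells of the third library, and at 27.6 CPM in members and 15.4 CPM in matched cells of the second. These genes were picked out after their values were seen.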
